A study of Mus musculus with 2 samples.

Results

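The genes described here are 10 transcription factor genes of the T lineage, Runx1, Runx3, Cbfb, Tcf7, Lef1, Tox, Bcl11b, Gata3, Bach2 and Myb. They were chosen by name, and all 10 were found among the 27179 genes of the count table and reached 1 CPM (the count scaled to a common library size) in each library. Their RNA was measured by sequencing in ALL211 cells, a T-cell acute lymphoblastic leukemia (T-ALL) of the mouse that carries Vav-tTA and TRE-GFP-shIkaros. The Vav promoter, which is active in blood cells, drives a tetracycline transactivator, and the transactivator drives GFP together with a short hairpin RNA against Ikaros. Doxycycline (Dox) switches off both the hairpin and GFP, so that endogenous Ikaros, a zinc finger regulator of lymphoid cells, can return. The Dox group (n = 1 library) came from leukemic recipient mice given Dox for 3 days, and its cells were sorted from spleen as GFP-mid T-ALL cells. The untreated group (n = 1 library) came from recipient mice with the same leukemia and no Dox, sorted from spleen as GFP-high T-ALL cells. Both groups carry both transgenes, all cells derive from a single primary leukemia, and the ages and strain of the recipients were not stated in the sources used here.

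The comparison asks how these genes differed once Ikaros was allowed to return. The Dox library held 16484613 counts and the untreated library 16960042 counts. The series design names 2 mice per condition, but each condition has 1 library, so no difference below can be checked against replicates and p-values are absent. The ratios carry exact 95% intervals that cover counting error only, and reads that are PCR copies can make them too narrow. Treatment, sorting gate and mouse differ together between the libraries and cannot be told apart, and cells given Dox but lacking the hairpin were not analysed here. In sorted bulk cells, fewer cells of a type and less RNA per cell cannot be told apart either. Ikzf1, which encodes Ikaros, had 20131 counts (1229 CPM) in the Dox library and 2057 counts (120.5 CPM) in the untreated library, the direction the labels give.

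T cell identity is built by a small set of factors that are switched on in thymic progenitors downstream of Notch signalling. TCF-1, the product of Tcf7, GATA3 and BCL11B commit progenitors to the T lineage, and RUNX proteins, which bind DNA together with their partner CBFβ, act at nearly every stage and steer the later choice between CD4 and CD8 cells. MYB supports the growth of progenitors and is a known oncogene of human T-ALL, while BACH2 restrains effector differentiation of mature lymphocytes. Ikaros acts in the same cells, where it opposes Notch target genes.

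Of the 10 genes, 2 were higher by 2-fold or more in the Dox library, Runx3 and Bach2, and 1 was lower by that much, Myb, while 7 lay within 2-fold. Among the 12125 genes that reached 1 CPM in either library, 13.6% were higher and 13.0% lower by 2-fold or more, so the members' counts do not stand far from these shares. The shares are of an unlike set. Each member reached 1 CPM in both libraries, whereas the 12125 genes include some that did so in only 1 library. The counting interval lay wholly beyond 2-fold higher for 2 of the 10 members and wholly beyond 2-fold lower for 0, against 9.11% and 8.38% of all measured genes. The median log2 fold was 0.12 over the members and -0.01 over all 12125 genes. Each log2 fold subtracts the untreated from the Dox log2 CPM after a prior count of 2 was added. Counting error alone was small at these depths: the interval of the ratio included equality for 1 of the 10 members, Cbfb, and for 21.2% of all genes.

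The promoters of the genes that differed most are shown with the distal promoter of Runx1, because Runx1 and Runx3 lay on opposite sides of equality. The windows are from RefSeq on GRCm38.p6 (mm10), run 5′ to 3′ on the strand of the gene and cover 250 bases before an annotated start and 50 from it, so that the start is at position 251. Of the 10 members, 9 matched, with 15 windows, and the motif counts do not cover Tox. The window of Bach2 is at an annotated start inside the gene. Capitals mark matches, on either strand, to 6 short motifs known for Ikaros, Runx, TCF/LEF, GATA, Myb and Bach proteins, whose letters are given with the counts below. Overlapping matches were kept, and the Bach motif is also that of AP-1. Runx3 and Runx1 each have a further window at an annotated start inside the gene. These windows are not shown and held 0 matches.
Runx3 distal, chr4:135120395-135120694, forward strand: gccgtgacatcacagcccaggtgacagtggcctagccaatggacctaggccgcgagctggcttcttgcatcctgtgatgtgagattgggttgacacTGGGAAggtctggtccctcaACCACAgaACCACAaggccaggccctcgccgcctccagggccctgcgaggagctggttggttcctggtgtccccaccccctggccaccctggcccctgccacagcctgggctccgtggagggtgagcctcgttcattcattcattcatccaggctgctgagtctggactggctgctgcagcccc
Runx1 distal, chr16:92826025-92826324, reverse strand: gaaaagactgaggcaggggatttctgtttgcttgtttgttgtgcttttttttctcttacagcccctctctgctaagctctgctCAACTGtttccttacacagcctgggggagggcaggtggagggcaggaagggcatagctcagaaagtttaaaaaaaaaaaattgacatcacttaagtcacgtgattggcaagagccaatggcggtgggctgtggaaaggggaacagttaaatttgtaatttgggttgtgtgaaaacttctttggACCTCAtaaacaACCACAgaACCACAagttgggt
Bach2, chr4:32417185-32417484, forward strand: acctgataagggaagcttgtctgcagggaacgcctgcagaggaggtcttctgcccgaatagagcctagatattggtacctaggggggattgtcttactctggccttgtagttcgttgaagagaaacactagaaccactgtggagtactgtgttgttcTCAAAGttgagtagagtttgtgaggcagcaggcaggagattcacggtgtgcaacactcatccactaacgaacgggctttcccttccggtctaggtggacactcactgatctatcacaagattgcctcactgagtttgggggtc
Myb, chr10:21160935-21161234, reverse strand: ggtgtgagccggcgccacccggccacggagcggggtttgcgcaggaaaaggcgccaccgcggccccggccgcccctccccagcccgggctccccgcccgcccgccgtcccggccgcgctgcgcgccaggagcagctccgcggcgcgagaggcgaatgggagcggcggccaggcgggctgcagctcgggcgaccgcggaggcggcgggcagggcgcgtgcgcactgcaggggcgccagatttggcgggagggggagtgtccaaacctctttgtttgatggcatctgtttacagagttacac
The distal windows of Runx3 and Runx1 both hold ACCACA, a Runx motif on the opposite strand, at paired positions with 2 bases between the copies, the first of them at position 117 in Runx3 and 279 in Runx1. This arrangement, searched for after the sequences were seen, occurred in either orientation in 7 of 32851 windows in all, of 7 genes. The Ikaros core, TGGGAA, was found in 4 of 15 member windows and in 25.6% of all windows. Its matches were in the distal Runx3 window, at position 97, and in 3 windows of Lef1, of which a pair overlap and share a match. The Runx motif, TGNGGT, was in 4 of 15 member windows and in 45.8% of all windows. The TCF/LEF motif, CTTTGA, was in 3 of 15 windows, of Bach2, Bcl11b and Lef1, and in 16.0% of all windows. The GATA motif, AGATAA, was in 1 window of Lef1 and in 11.2% of all windows. The Myb motif, CAACTG, was in 1 window of Runx1 and in 13.7% of all windows. The Bach motif, TGAGTCA, was in 0 of 15 windows and in 5.20% of all. The Myb window held 0 matches and was rich in G and C, at 75.0%, against a median of 52.7% over all windows. A match describes these letters and is not evidence of binding.

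Within the Runx group, the leading difference was in which Runx gene supplied the transcripts. Runx3 (Entrez 12399; chromosome 4, 135120645 to 135177990), the Runx protein of CD8 T cells, which silences Cd4, had 655 counts (40.0 CPM) in the Dox library and 116 counts (6.80 CPM) in the untreated library. Its ratio was 5.89 with an interval of 4.82 to 7.23 (log2 fold 2.54), and 97.0% of all measured genes had a lower log2 fold. Runx1 (Entrez 12394; chromosome 16, 92601466 to 92826074), the Runx protein of blood stem cells and early thymocytes, mutated in some human T-ALL, was lower in the Dox library. It had 1443 counts (88.1 CPM) in the Dox library and 2044 counts (119.7 CPM) in the untreated library, a ratio of 0.736 (interval 0.687 to 0.788, log2 fold -0.44). After removal of a trend of log2 fold with gene length, the log2 fold of Runx1 was -0.62. The Dox library was thus higher by 33.2 CPM for Runx3, and its difference for Runx1 was -31.6 CPM. Runx2, the Runx protein of bone, had 80 counts in the Dox library and 8 in the untreated library.

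Summed over Runx1, Runx2 and Runx3, the counts were 2178 (133.0 CPM) in the Dox library and 2168 (127.0 CPM) in the untreated library, a nearly equal total with a different makeup. Per kilobase of gene length the sum was 22.9 RPKM (CPM per kilobase) in the Dox library and 18.1 RPKM in the untreated library, because the Runx3 gene model is the shortest of the family. Runx3 made up 30.1% of the Runx counts in the Dox library (exact Clopper-Pearson interval 28.2 to 32.0) and 5.35% in the untreated library (4.44 to 6.38). Per kilobase of gene length the Runx3 share was 44.8% in the Dox library and 9.67% in the untreated library, so Runx3 nearly matched Runx1 (52.1% in the Dox library, against 90.0% in the untreated library). These shares lie within a library and do not depend on how the libraries were scaled. Gene counts do not separate transcripts of the distal and proximal Runx promoters. Cbfb (Entrez 12400; chromosome 8, 105170674 to 105217989), the shared partner that stabilises Runx proteins on DNA, had 5910 counts (360.9 CPM) in the Dox library and 6308 counts (369.5 CPM) in the untreated library. Its ratio of 0.977 had an interval of 0.942 to 1.01. Per kilobase, Cbfb stood at 5.40 times the Runx sum in the Dox library and 7.02 times in the untreated library.

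**Figure D1:**
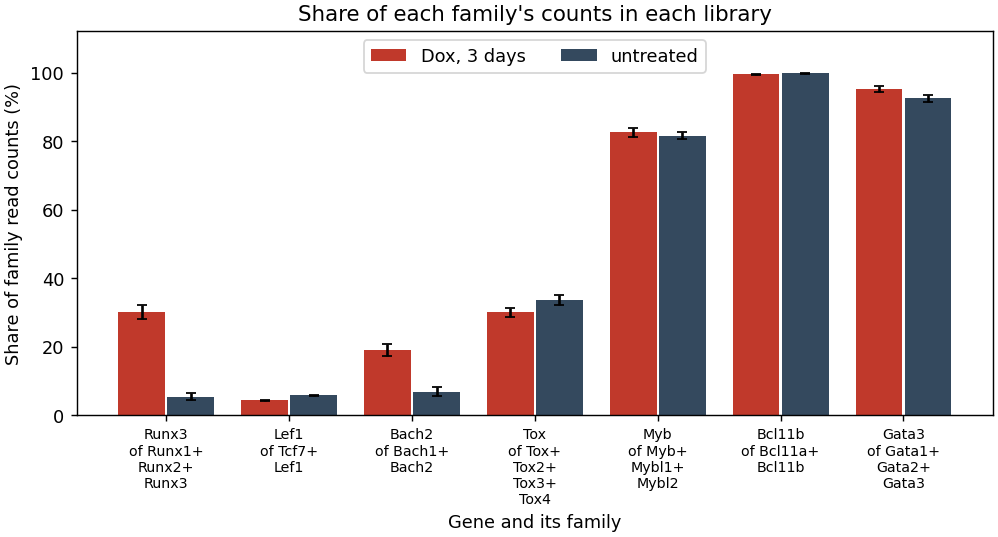
Share of each family's read counts (percent, vertical axis) taken by the named gene in the Dox library (left bars) and the untreated library (right bars), with exact 95% binomial intervals as error bars. Runx3 takes 30.1% of Runx counts in the Dox library and 5.35% in the untreated library, and Bach2 takes 19.0% of Bach counts in the Dox library and 6.86% in the untreated library, while the other shares differ by less than 4 points.

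The HMG box factors lay within 2-fold, with Tcf7 and Tox near equality and Lef1 lower in the Dox library. Tcf7 (Entrez 21414; chromosome 11, 52246527 to 52283383), which encodes TCF-1, had 64165 counts (3918 CPM) in the Dox library and 62561 counts (3665 CPM) in the untreated library. Its ratio was 1.07 (interval 1.06 to 1.08), and its log2 fold of 0.10 came to 0.07 under median-of-ratios scaling and to 0.15 after removal of the trend with gene length. A level in RPKM above that of Tcf7 was found for 23 genes in the Dox library and 24 in the untreated library. Lef1 (Entrez 16842; chromosome 3, 131110297 to 131224357), the close relative that binds the same sites, had 2926 counts (178.7 CPM) in the Dox library and 3897 counts (228.3 CPM) in the untreated library, a ratio of 0.783 (0.746 to 0.821, log2 fold -0.35). Lef1 thus took 4.36% of Tcf7 and Lef1 counts in the Dox library (interval 4.21 to 4.52) and 5.86% in the untreated library (5.69 to 6.05). Tox (Entrez 252838; chromosome 4, 6686353 to 6991557), an HMG box factor needed for the CD4 lineage in the thymus, had 1494 counts (91.2 CPM) in the Dox library and 1417 counts (83.0 CPM) in the untreated library (ratio 1.10, 1.02 to 1.18). Its relative Tox2 was at 78.3 CPM in the Dox library and 47.7 CPM in the untreated library (log2 fold 0.71), and the share of Tox in the counts of its family was 30.0% (28.7 to 31.3) in the Dox library and 33.7% (32.3 to 35.2) in the untreated library.

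The commitment factors with zinc fingers were modestly higher in the Dox library. Gata3 (Entrez 14462; chromosome 2, 9857078 to 9887953), required from the earliest T progenitors and again for CD4 cells, had 2787 counts (170.2 CPM) in the Dox library and 2124 counts (124.4 CPM) in the untreated library. Its ratio was 1.37 (1.29 to 1.45, log2 fold 0.45). Bcl11b (Entrez 58208; chromosome 12, 107910403 to 108004145), which closes off other fates at commitment and is lost in some human T-ALL, had 2884 counts (176.1 CPM) in the Dox library and 2496 counts (146.2 CPM) in the untreated library. The ratio was 1.20 (1.14 to 1.27, log2 fold 0.27), and the log2 fold was 0.07 after removal of the trend with gene length. Bcl11b supplied 99.5% of the counts of Bcl11a and Bcl11b in the Dox library (99.15 to 99.71) and 99.9% in the untreated library (99.71 to 99.99). Gata3 supplied 95.3% of the counts of Gata1, Gata2 and Gata3 in the Dox library (94.5 to 96.0) and 92.4% in the untreated library (91.3 to 93.5). The remainder came almost wholly from Gata1, the erythroid and megakaryocyte member, with 136 counts in the Dox library and 174 in the untreated library, while Gata2 had 2 counts in the Dox library and 0 in the untreated library.

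Bach2 (Entrez 12014; chromosome 4, 32238413 to 32586109), a repressor of the bZIP family that pairs with small Maf proteins, was the member with the lowest level per kilobase in both libraries. It had 354 counts (21.6 CPM) in the Dox library and 125 counts (7.32 CPM) in the untreated library. The ratio was 2.95 with an interval of 2.40 to 3.65 (log2 fold 1.55), and 93.1% of all measured genes had a lower log2 fold. The log2 fold was 1.33 after removal of the trend with gene length. The antisense gene Bach2os, whose exons share 537 bases with those of Bach2, had 5 counts in the Dox library and 1 in the untreated library; reads of the 2 genes cannot be told apart if strand was not used. Its widely expressed relative Bach1 was at 92.4 CPM in the Dox library and 99.4 CPM in the untreated library, so Bach2 made up 19.0% of Bach counts in the Dox library (17.2 to 20.8) and 6.86% in the untreated library (5.74 to 8.12). The small Maf partners Mafk and Mafg, named after their values were seen, had log2 folds of -0.22 and -0.89.

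Myb (Entrez 17863; chromosome 10, 21124930 to 21160984) had 2311 counts (141.1 CPM) in the Dox library and 4907 counts (287.4 CPM) in the untreated library. It was 2.04-fold lower in the Dox library (interval 1.94 to 2.14, log2 fold -1.03). The interval crosses 2-fold, and under upper quartile scaling the log2 fold was -0.998, just short of it, so 0 members then reached 2-fold lower. Mybl2, the cell cycle member of the family, was 2.38-fold lower, at 25.8 CPM in the Dox library and 61.4 CPM in the untreated library, while Mybl1 had 66 counts in the Dox library and 61 in the untreated library. Myb made up 82.6% of the family counts in the Dox library (81.1 to 84.0) and 81.6% in the untreated library (80.5 to 82.5), shares whose intervals overlap. The share of Mybl2 was 15.1% in the Dox library (13.8 to 16.5) and 17.4% in the untreated library (16.5 to 18.4), and that of Mybl1 was 2.36% in the Dox library (1.83 to 2.99) and 1.01% in the untreated library (0.776 to 1.30), both without overlap. The family total was 170.9 CPM in the Dox library and 352.5 CPM in the untreated library.

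**Figure D2:**
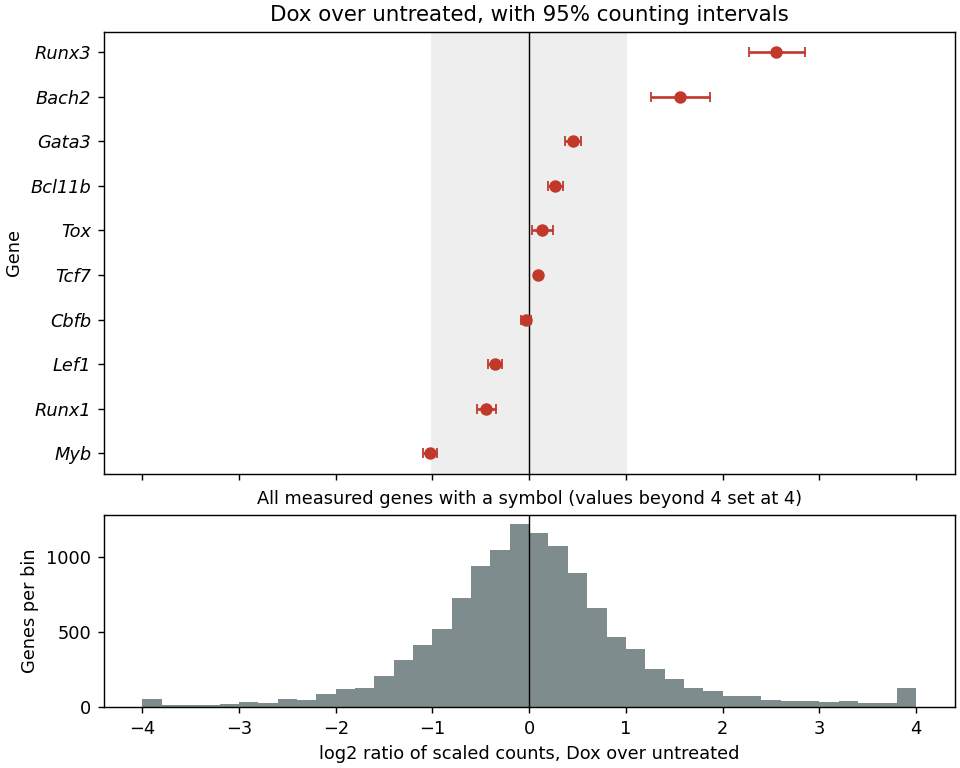
Upper panel: log2 ratio of scaled counts, Dox over untreated (horizontal axis), for each member, with exact 95% counting intervals as bars and 2-fold either way shaded; lower panel: number of genes per bin of log2 fold for all measured genes with a symbol. Runx3 and Bach2 lie to the right of the shaded band, Myb at its left edge and the other 7 members inside it.

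Compared per kilobase of length, the levels of the members ran from Tcf7 at the top to Bach2 at the bottom in both libraries. Tcf7 stood at 1751 RPKM in the Dox library and 1638 RPKM in the untreated library and made up 82.7% of the summed RPKM of the 10 genes in the Dox library and 80.3% in the untreated library. Cbfb followed at 123.8 RPKM in the Dox library and 126.8 RPKM in the untreated library, and Lef1 at 72.6 RPKM in the Dox library and 92.8 RPKM in the untreated library. The places below them changed. In the Dox library Gata3 (52.9 RPKM) stood above Myb (37.4 RPKM), while in the untreated library Myb (76.1 RPKM) stood above Gata3 (38.7 RPKM). Tox, Bcl11b and Runx1 came next in both libraries, at 32.0, 22.2 and 12.0 RPKM in the Dox library and 29.1, 18.5 and 16.2 RPKM in the untreated library. Runx3 was at 10.3 RPKM in the Dox library, close behind Runx1, and at 1.75 RPKM in the untreated library. Bach2 was lowest, at 2.54 RPKM in the Dox library and 0.862 RPKM in the untreated library. No neighbours in either order had overlapping Poisson 95% intervals, which cover counting error only.

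**Figure D3:**
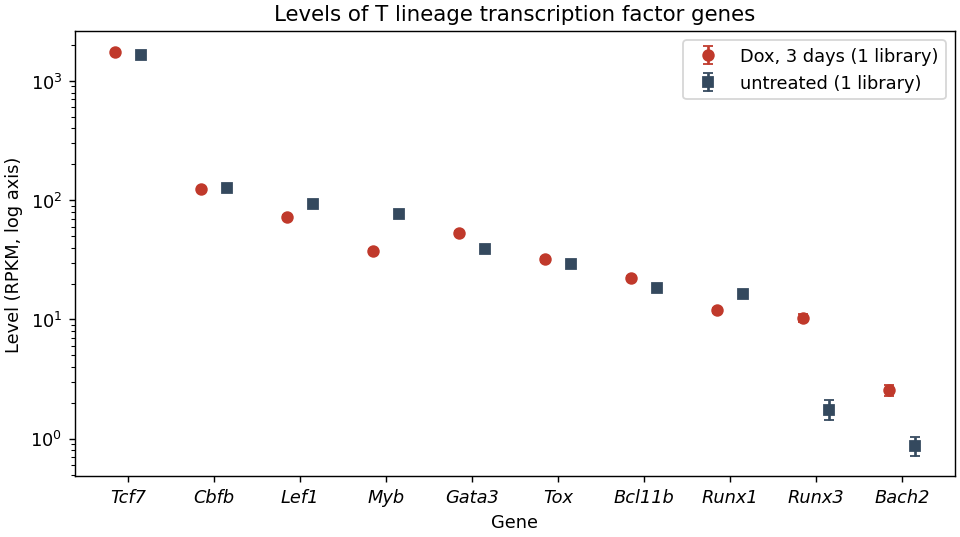
Level of each member in RPKM (log axis) in the Dox library (circles, left) and the untreated library (squares, right), 1 library each, with exact Poisson 95% intervals, most of them smaller than the symbols. Tcf7 is highest, at 1751 RPKM (Dox) and 1638 RPKM (untreated), and the widest gaps on the log axis are those of Runx3, at 10.3 RPKM (Dox) and 1.75 RPKM (untreated), and Bach2, at 2.54 RPKM (Dox) and 0.862 RPKM (untreated).

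Genes that work with these factors were described from 5 further lists, which leave out the members; their counts read against the same 13.6% and 13.0% of all genes. Of 8 measured Runx relatives and corepressors, 3 were up by 2-fold or more in the Dox library and 0 down by that much (median log2 fold 0.45). They were Runx2 (3.09), Tle4 (2.92), a Groucho corepressor with 173 counts in the Dox library and 22 in the untreated library, and Tle2 (1.24). Runx2 was under 1 CPM in the untreated library and was measured only through the Dox library. Of 10 genes of TCF/LEF relatives and the Wnt pathway, 2 were up by 2-fold or more and 0 down by that much (median 0.32). These were Tcf7l1 (1.18), a repressive relative of Tcf7, and Bcl9l (1.12), a β-catenin coactivator. Of 11 relatives and cofactors of the Bcl11, Gata, Tox, Bach and Myb proteins, 0 were up by 2-fold or more and 1, Mybl2, down by that much (median -0.10).

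Of 19 other lymphoid transcription factors, 3 were up by 2-fold or more in the Dox library and 0 down by that much (median 0.51). Fli1, an Ets factor, was at 182.4 CPM in the Dox library and 76.7 CPM in the untreated library (log2 fold 1.25). Spib, known from plasmacytoid dendritic cells and B cells, had 71 counts in the Dox library and 2 in the untreated library, a ratio of 37.0 whose interval runs from 9.87 to 311. Zeb2 had 19 counts in the Dox library and 0 in the untreated library, at least 6.60-fold higher taking 3 counts per library as the floor; both genes were measured only through the Dox library. Of 22 genes known as targets of these factors or as T cell effectors, 4 were up by 2-fold or more and 3 down by that much (median 0.52). Those higher were Kit (192 counts in the Dox library and 4 in the untreated library, measured only through the Dox library), the egress receptor S1pr1 (2.62), the homing receptor Ccr7 (1.66) and the CD8 beta chain Cd8b1, at the threshold with 10311 counts in the Dox library and 5363 in the untreated library. Those lower were the recombinase gene Rag1 (-5.17), Myc (-3.80) and the pre-T-cell receptor chain Ptcra, with 1 count in the Dox library and 32 in the untreated library, measured only through the untreated library. Cd4, which Runx proteins silence in CD8 cells, was at 658.5 CPM in the Dox library and 368.6 CPM in the untreated library (log2 fold 0.84), named after its value was seen.

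**Figure D4:**
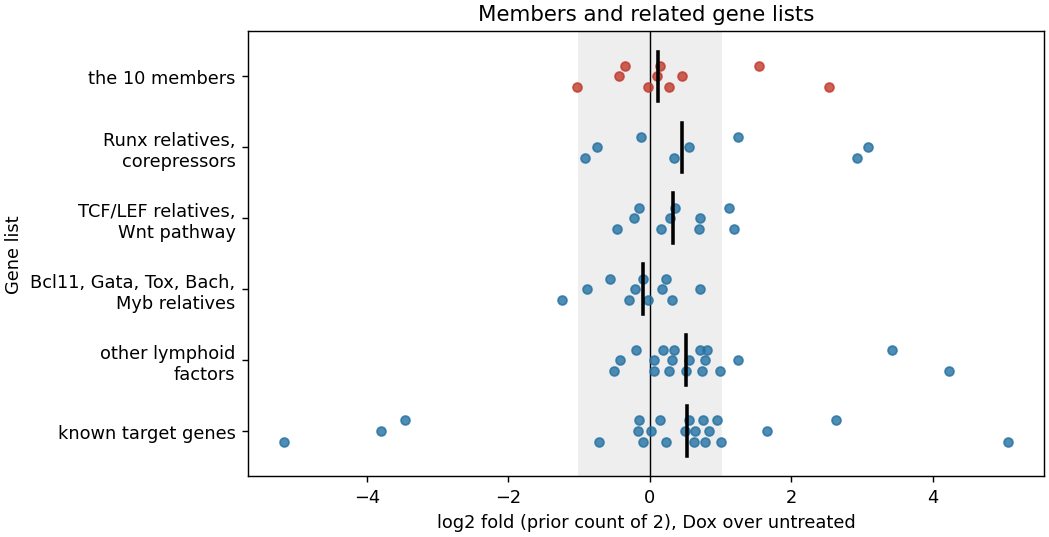
Log2 fold with a prior count of 2 (horizontal axis, Dox over untreated) of the 10 members (top row) and of the measured genes of 5 related lists; each point is a gene, black bars are medians and 2-fold either way is shaded. The members' median is 0.12, and the medians of the other lists lie between -0.10 and 0.52.

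Markers of the labelled cell type were present in both libraries, and markers of other cells were higher in the Dox library alongside Runx3 and Bach2. The marker counts read against the same 13.6% higher and 13.0% lower of all measured genes. Of 14 T cell markers, 2 were up by 2-fold or more, near that share, and 0 down by that much. Their summed level was 10084 CPM in the Dox library and 7692 CPM in the untreated library. Of 10 dendritic cell genes, 8 were measured and all 8 were up by 2-fold or more. Of these 8, 2 reached 1 CPM in the untreated library, and the rest were measured only through the Dox library. The list summed to 540.9 CPM in the Dox library and 151.0 CPM in the untreated library, of which Ccr7, also a T cell gene, made 461.4 CPM in the Dox library and 145.9 CPM in the untreated library, and Clec9a, Siglech, Zbtb46, Batf3 and Cd209a were at 0 counts in the untreated library. All 12 measured of 14 macrophage genes were up by 2-fold or more, 5 of them with 1 CPM or more in the untreated library, with a sum of 175.2 CPM in the Dox library and 14.0 CPM in the untreated library, and Mertk at 0 in the untreated library. Natural killer genes summed to 7.94 CPM in the Dox library and 0.879 CPM in the untreated library, with 3 of 3 measured up by 2-fold or more, all 3 measured only through the Dox library, Prf1, Klrk1 and Ncr1 at 0 in the untreated library, and Gzmb and Klre1 at 0 in both. Of B cell and plasma cell genes, 2 of 2 measured were up by 2-fold or more, Ighm and Jchain. Ighm made 948.2 of 953.6 CPM in the Dox library and 346.4 of 347.4 CPM in the untreated library. Jchain had 34 counts in the Dox library and 0 in the untreated library, and was measured only through the Dox library. The defining B cell genes Pax5 and Ebf1 were at 0 counts in both libraries. Neutrophil genes summed to 10.9 CPM in the Dox library and 4.98 CPM in the untreated library, with 3 of 5 measured up by 2-fold or more. Erythroid genes summed to 79.1 CPM in the Dox library and 12.1 CPM in the untreated library, with 7 of 8 up by that much. Of the measured genes, 2 of the 5 neutrophil genes and 5 of the 8 erythroid genes reached 1 CPM in the untreated library. Runx3 is also expressed by natural killer and dendritic cells and Bach2 by B cells, as background. The part of RNA from other cells in the values of Runx3, Bach2, Runx2, Spib, Zeb2 and Kit was not tested. Those cells include dendritic cells, macrophages, natural killer cells, B cells and plasma cells.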

How the data were processed

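RNA was sequenced from 1 Dox and 1 untreated library. The authors deposited raw read counts per gene by Entrez identifier, with a gene length column. The tools were featureCounts and CASAVA 1.8.2 with mm10, per the submitters' processing notes; aligner, annotation, strand setting and any pooling of the 2 mice per condition are not given here. Symbols came from RefSeq (25275 genes) and GENCODE (18 genes), and 1886 genes had none. In the GENCODE annotation, exons of Runx1, Lef1, Gata3, Tox, Bach2 and Myb share 77 to 1208 bases with exons of other genes, whose reads may not be told apart. The series table and the sample tables differed at 0 of 27179 genes, and 0 columns were left unassigned.

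Libraries were scaled with TMM factors (0.994 for Dox and 1.01 for untreated) in edgeR 4.0.16 under R 4.3.3. CPM and ratios carry no prior count; log2 folds carry a prior count of 2. RPKM used the deposited length. A gene counted as measured where either library reached 1 CPM. Ratios and shares have exact Clopper-Pearson 95% intervals and levels exact Poisson intervals. Where 1 library had 0 counts, the fold was taken against a floor of 3 counts, 0.183 CPM in the Dox and 0.176 CPM in the untreated library. With 1 library per group no test was run.

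Named genes are the 10 members, Ikzf1, the relatives in each family share and, from each related list, up to 6 genes at least 2-fold different; the further list genes in the text were chosen after their values were seen. The members and lists were chosen with earlier results of these data known. The lists share genes: 9 of the target list are also T cell markers, and Ccr7 and Eomes are each in 2 lists. Some genes of the lists are not reported here. Alternatives were upper quartile, total-count and median-of-ratios (DESeq2 1.42.0) scaling, prior counts of 5 and 0.5, other filters and thresholds, the deeper library thinned to the other, library totals that leave out 109 mitochondrial, ribosomal protein and haemoglobin genes or 61 marker genes, removal of a lowess trend with gene length, and shares per kilobase. Calculations ran in Python 3.11.15 (scipy 1.17.1, numpy 2.4.6, statsmodels 0.14.6, pandas 2.3.3, matplotlib 3.10.9). The log2 folds and ratio intervals after scaling were tested on simulated Poisson counts with known folds, which hold no variation between replicates. The shares, levels, lists and motif counts were not tested in this way.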

Additional observations from a re-analysis of the deposited data

How the results depend on the processing

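Over 9 alternative scalings, prior counts, totals, depths and a length correction, no member's log2 fold changed sign, and 84 of 90 values stayed within the member's counting interval. Of the 6 that did not, 4 were of Tcf7 (0.07 to 0.15, against 0.10), and those of Runx1 (-0.62) and Bcl11b (0.07) came with the length correction. Runx3 ranged from 2.48 to 2.56, Bach2 from 1.33 to 1.57 and Myb from -1.08 to -0.998. The members at least 2-fold lower numbered 0 in place of 1 with upper quartile scaling, with intervals wholly beyond 2-fold and at 4-fold. At 4-fold, 1 member was higher, Runx3, in place of 2. Over all genes, those higher numbered 2993 with a filter of 1 count, 1091 with 5 CPM and 541 at 4-fold, against 1644, and those lower numbered 1016 with intervals wholly beyond 2-fold and 372 at 4-fold, against 1581; fewer or more genes enter by construction. Per kilobase, the share of Runx3 was 44.8% (Dox) and 9.67% (untreated), of Runx1 52.1% (Dox) and 90.0% (untreated), of Lef1 3.98% (Dox) and 5.36% (untreated), of Bach2 13.9% (Dox) and 4.83% (untreated), and of Gata3 92.0% (Dox) and 87.3% (untreated). No paired analysis was possible because each condition has 1 library, and for the same reason none could be left out. Depth limits the genes under about 10 counts, such as Runx2, Spib and Kit in the untreated library, whose ratios have wide intervals.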

Other observations

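Several other T lineage factor genes, named after their values were seen, lay within 2-fold but above equality by more than counting error in the Dox library. Ets1, an abundant Ets factor of lymphocytes, was at 1729 CPM in the Dox library and 867.7 CPM in the untreated library (log2 fold 0.99). Satb1, a chromatin organiser of thymocytes, was at 795.8 CPM in the Dox library and 478.4 CPM in the untreated library, and Zbtb7b, which encodes the CD4 lineage factor ThPOK, at 132.8 CPM in the Dox library and 76.2 CPM in the untreated library. Zeb1, a zinc finger repressor of the T lineage, differed little, at 100.1 CPM in the Dox library and 96.3 CPM in the untreated library. Of the 19 measured factors of this list, 16 had a positive log2 fold. Patz1 (log2 fold -0.43), Tbx21 (-0.51) and Ets2 (-0.20) lay below equality by more than counting error. Axin2, a feedback target of TCF/LEF and β-catenin, had a log2 fold of 0.70, while Ctnnb1, which encodes β-catenin, had -0.22.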
